A study of Homo sapiens with 6 samples.

Results

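Genes of the transforming growth factor beta (TGF-beta) pathway were examined in OVCAR8 cells, a line from high-grade serous ovarian cancer, after treatment with DZNep or silencing of EZH2. The set held 9 listed genes, namely the ligands TGFB1 and TGFB2, the latency protein LTBP1, the receptors TGFBR1 and TGFBR2, the signal carrier SMAD3, the inhibitors SMAD7 and SKIL, and the target TGFBI. All 9 were found among the 14930 genes of the matrix, and 7 passed the filter on low values that left 9671 genes for testing. RNA-Seq was available for 6 samples in 3 groups of 2 replicates, all of the same line and all collected after 72 h. Ctrl cells received the solvent DMSO according to the labels, DZNep cells received DZNep, an inhibitor of S-adenosylhomocysteine hydrolase that depletes EZH2, and shEZH2 cells received doxycycline to induce a hairpin against EZH2. The labels give the doses as 5 mM DZNep and 1 mg/mL doxycycline, whereas the study's methods give the same figures in micromolar and micrograms per mL. The shEZH2 group rested on 1 hairpin in a doxycycline-inducible lentiviral vector. Whether Ctrl cells carried the hairpin is not given in the sources used here, and a scramble hairpin with doxycycline was not analysed here, so effects of doxycycline, of the vector and of the hairpin cannot be told apart in that comparison. Nothing stated that replicates came from separate cultures, so p-values measure only the spread between these samples, which may be technical.

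TGF-beta ligands are secreted bound to a latency peptide, which latent TGF-beta binding proteins such as LTBP1 tether to the extracellular matrix. Released ligand joins the type II receptor TGFBR2 to the type I receptor TGFBR1, which phosphorylates SMAD2 and SMAD3, and these enter the nucleus with SMAD4 and bind DNA at short CAGAC elements. SMAD7 blocks the type I receptor and SKIL (SnoN) represses SMAD complexes on DNA, and both are themselves known as genes induced by the pathway. In epithelial tumours the pathway is known for growth arrest early on and for a mesenchymal, matrix-producing state later.

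The sequence that defines the silenced group and the promoters of 4 genes on which the results turn are shown first. The hairpin (EZH2 shRNA#2) carries a 21-base target that matched EZH2 and no other gene among the transcripts of GENCODE release 44. It lies in exon 4 of 20 of the EZH2 transcript, inside the coding sequence, at chr7:148832703-148832723 of GRCh38 on the minus strand.
EZH2 shRNA#2 target: ccaacacaagtcatcccatta

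The promoters below are the 250 bases before the start site of TGFB2, TGFBR2, SMAD7 and TGFBI, read 5′ to 3′ on the gene's strand from RefSeq (GRCh38.p14). They are shown because these 4 genes had higher values with DZNep than in both other groups, and capitals mark each CAGAC or its reverse complement GTCTG. The windows lie at chr1:218345086-218345335 (plus strand) for TGFB2, chr3:30606351-30606600 (plus strand) for TGFBR2, chr18:48950966-48951215 (minus strand) for SMAD7 and chr5:136028738-136028987 (plus strand) for TGFBI.
TGFB2: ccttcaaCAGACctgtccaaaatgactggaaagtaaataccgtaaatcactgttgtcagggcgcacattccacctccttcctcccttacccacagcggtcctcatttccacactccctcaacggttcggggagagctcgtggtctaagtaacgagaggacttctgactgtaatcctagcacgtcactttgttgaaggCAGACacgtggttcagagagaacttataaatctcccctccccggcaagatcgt
TGFBR2: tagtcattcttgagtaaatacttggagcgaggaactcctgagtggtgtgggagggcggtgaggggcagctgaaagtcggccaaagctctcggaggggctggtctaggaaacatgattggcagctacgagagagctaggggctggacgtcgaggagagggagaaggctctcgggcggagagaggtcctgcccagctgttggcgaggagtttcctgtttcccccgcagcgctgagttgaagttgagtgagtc
SMAD7: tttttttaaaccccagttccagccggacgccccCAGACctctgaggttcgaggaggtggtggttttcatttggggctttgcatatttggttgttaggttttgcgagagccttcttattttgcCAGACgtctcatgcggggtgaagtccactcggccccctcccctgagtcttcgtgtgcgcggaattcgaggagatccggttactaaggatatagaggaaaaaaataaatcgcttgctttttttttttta
TGFBI: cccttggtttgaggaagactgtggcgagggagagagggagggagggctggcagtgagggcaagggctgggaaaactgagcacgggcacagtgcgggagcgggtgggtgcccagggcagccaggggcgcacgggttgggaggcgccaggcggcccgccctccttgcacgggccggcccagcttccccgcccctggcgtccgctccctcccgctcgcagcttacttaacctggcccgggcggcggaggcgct

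The TGFB2 window held 2 CAGAC elements, beginning 243 and 53 bases before the start site, and that of SMAD7 held 2, at 217 and 128 bases. Neither strand of the TGFBR2 and TGFBI windows held the letters, nor did those of TGFB1 and SMAD3. LTBP1 held 2 copies on the other strand, and TGFBR1 and SKIL held 1 each, so that 5 of the 9 promoters held at least 1 copy. Of 34943 RefSeq promoter windows of the same length, 38% held at least 1 copy and 8.83% at least 2. The motif is short, and a match describes letters in this window only.

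The values are whole numbers that sum to between 999956 and 1000068 in every sample. The authors had thus scaled each library to a common total, and a value is neither a read count nor tied to a known depth. Because the matrix does not state whether gene length was taken into account, levels were compared between samples for 1 gene at a time and not between genes. EZH2, the targeted gene, was listed at 36 and 42 in Ctrl, 26 and 26 in DZNep and 18 and 18 in shEZH2 samples. On the log2 scale it differed from Ctrl by -0.63 with DZNep (standard error 0.18, limma, adjusted p = 0.026) and -1.12 with shEZH2 (standard error 0.18, limma, adjusted p = 0.016), so that it was lower in both treated groups. The shEZH2 call was lost without shEZH2 replicate 1 or 2 (limma, adjusted p = 0.21 and 0.17). The DZNep call was lost without Ctrl replicate 2, DZNep replicate 2 or either shEZH2 sample (limma, adjusted p = 0.083, 0.073, 0.091 and 0.092). Of 10 markers of ovarian epithelium 8 were listed. KRT8 and KRT18 made up most of their sum, PAX8 lay between 10 and 19, and EPCAM (5 to 12), WT1 (1 to 2) and CDH1 (0 to 8) were low.

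The values of the 9 genes in every sample fell into several patterns. TGFB2, TGFBR2, SMAD7 and TGFBI had their highest values with DZNep, and SMAD3 was higher with both treatments. As deposited, TGFB1 was highest with shEZH2, and LTBP1 and SKIL overlapped between Ctrl and both treated groups. TGFBR1 had its highest value in a Ctrl sample.

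**Figure D1:**
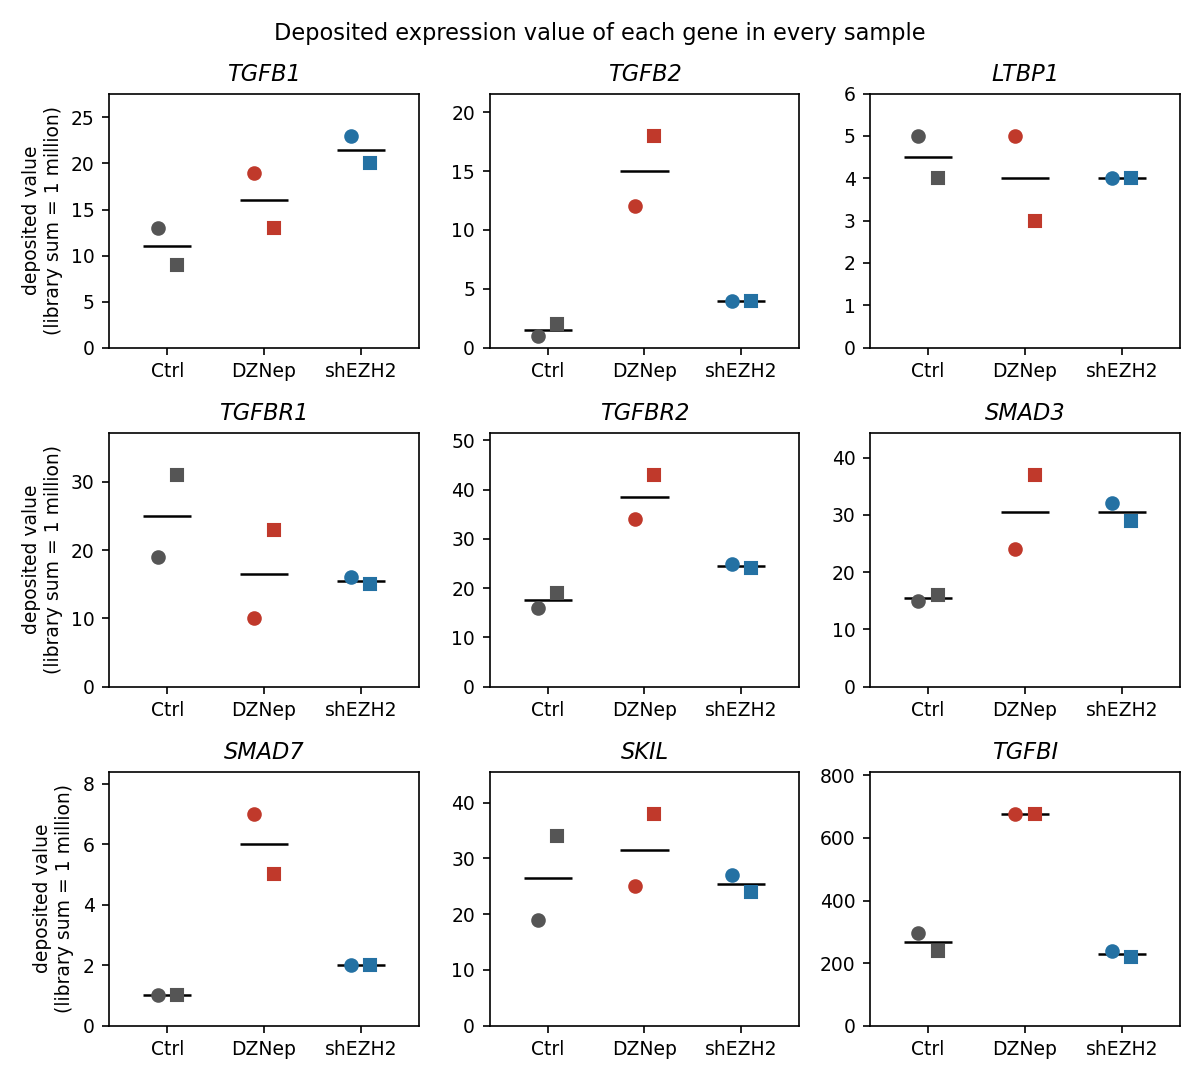
Deposited value (vertical axis, scaled by the authors to a common library total) of the 9 genes in the Ctrl, DZNep and shEZH2 groups. Circles are replicate 1, squares replicate 2 and the line is the mean of the 2 samples; for TGFBI both DZNep samples lie near 677, above Ctrl (297 and 239) and shEZH2 (238 and 221), and for LTBP1 every sample lies between 3 and 5.

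TGFB2, one of the 3 TGF-beta ligands, had the largest response of the 9 genes. It lies on chromosome 1 (chr1:218345336-218444619, plus strand, 7 exons). Of the 5868 exon bases of its main transcript, 701 overlap the antisense gene TGFB2-AS1 and 1371 the gene TGFB2-OT1 on the same strand, and reads there could be counted for either gene. It was listed at 1 and 2 in Ctrl, 12 and 18 in DZNep and 4 and 4 in shEZH2 samples, so the 3 groups did not overlap. The DZNep log2 fold change was 2.63 (standard error 0.24, 95% interval 2.08 to 3.18, limma, adjusted p = 0.00021), the 42nd highest of the 9671 genes. With shEZH2 it was 1.01 (standard error 0.24, 95% interval 0.46 to 1.55, limma, adjusted p = 0.043). The direct comparison gave -1.63 for shEZH2 against DZNep (95% interval -2.18 to -1.08, limma, adjusted p = 0.0096). In bulk RNA, fewer cells expressing a gene and less RNA per cell cannot be told apart.

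Low values limit what can be said of TGFB2. It passed the filter through its DZNep samples only, so it had to differ in that comparison. The mean values give a DZNep to Ctrl ratio of 10, which rounding leaves between 7.25 and 15.5, and a shEZH2 to Ctrl ratio of 2.67, between 1.75 and 4.5. The shEZH2 call was lost without Ctrl replicate 1 (limma, adjusted p = 0.082) and without shEZH2 replicate 1 or 2 (limma, adjusted p = 0.28 and 0.29). Leaving out either shEZH2 sample also ended the direct call (limma, adjusted p = 0.074 and 0.072).

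TGFB1 (chr19:41301587-41353922, minus strand), the ligand best known in tumours, was listed at 13 and 9 in Ctrl, 19 and 13 in DZNep and 23 and 20 in shEZH2 samples. Both shEZH2 samples lay above both Ctrl samples, whereas DZNep and Ctrl overlapped. After scaling, DZNep replicate 1 (20.3) lay just above shEZH2 replicate 2 (20.27). The log2 fold change was 0.43 with DZNep (95% interval -0.27 to 1.14, limma, adjusted p = 0.28) and 0.88 with shEZH2 (95% interval 0.17 to 1.59, limma, adjusted p = 0.11), and neither passed the threshold. The 2 treated groups differed by 0.44 (95% interval -0.27 to 1.15, limma, adjusted p = 0.4). The DZNep value ran from 0.06 without DZNep replicate 1 to 0.81 without DZNep replicate 2. With the replicate number fitted as a block it was not called in all 6 samples (limma, adjusted p = 0.085). In the Ctrl and DZNep samples alone the block gave a call (limma, adjusted p = 0.02), resting mainly on spread borrowed across genes. The shEZH2 value was 1.19 without Ctrl replicate 1. It was past the threshold when only the 2 groups compared were fitted (limma, adjusted p = 0.048). With the block it passed in all samples (limma, adjusted p = 0.0017) and in the 2 groups alone (limma, adjusted p = 0.0042). The block in 2 groups alone leaves each gene little spread of its own.

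LTBP1, which holds latent ligand in the matrix, was listed between 3 and 5 in all samples, with 5 and 4 in Ctrl, 5 and 3 in DZNep and 4 and 4 in shEZH2. It spans 453 kb on chromosome 2 (chr2:32946953-33399509, plus strand). The groups overlapped, and the gene did not pass the filter. In a fit of all 14930 genes its log2 fold change was -0.21 with DZNep (95% interval -0.91 to 0.49, limma, adjusted p = 0.6) and -0.17 with shEZH2 (limma, adjusted p = 0.76). Of its 6502 exon bases, 249 overlap an antisense transcript.

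The receptors differed from each other. TGFBR2 (chr3:30606601-30694142, plus strand), the type II receptor that binds the ligand first, was listed at 16 and 19 in Ctrl, 34 and 43 in DZNep and 25 and 24 in shEZH2 samples. The 3 groups did not overlap, with shEZH2 between the other two. The DZNep log2 fold change was 1.02 (standard error 0.17, 95% interval 0.62 to 1.42, limma, adjusted p = 0.0029). After scaling, the difference was 1.02 for the samples numbered 1 and 1.02 for those numbered 2. With shEZH2 the log2 fold change was 0.42 (95% interval 0.02 to 0.82, limma, adjusted p = 0.16), and shEZH2 against DZNep gave -0.60 (95% interval -1 to -0.20, limma, adjusted p = 0.068), neither past the threshold.

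TGFBR1 (chr9:99104038-99154192, plus strand), the type I receptor kinase, was listed at 19 and 31 in Ctrl, 10 and 23 in DZNep and 16 and 15 in shEZH2 samples. As deposited, DZNep replicate 2 lay above Ctrl replicate 1, and after scaling it lay just below it (20.6 against 20.65). The log2 fold change was -0.71 with DZNep (95% interval -1.43 to 0.01, limma, adjusted p = 0.10) and -0.66 with shEZH2 (95% interval -1.39 to 0.06, limma, adjusted p = 0.21), and neither passed the threshold. The 2 treated groups gave a difference of 0.05 (95% interval -0.68 to 0.77, limma, adjusted p = 0.95), an interval wide enough to hold a difference the size of either comparison with Ctrl. Replicate 2 exceeded replicate 1 by 0.52 on the log2 scale in Ctrl and by 0.89 in DZNep, and DZNep lay below Ctrl by 0.89 for the samples numbered 1 and by 0.53 for those numbered 2. The DZNep value was -0.97 without Ctrl replicate 1, -1.15 without DZNep replicate 2 and -0.27 without DZNep replicate 1. With the replicate number fitted as a block it was called lower (limma, adjusted p = 0.005). The block in the Ctrl and DZNep samples alone also gave this call (limma, adjusted p = 4.6e-05). The shEZH2 value too was called lower with the block (limma, adjusted p = 0.018, and 0.042 in the 2 groups alone). A block in 2 groups alone leaves each gene little spread of its own. The p-values of such fits rest mainly on spread borrowed across genes.

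SMAD3 (chr15:67063763-67195173, plus strand), the signal carrier, was listed at 15 and 16 in Ctrl, 24 and 37 in DZNep and 32 and 29 in shEZH2 samples. All 4 treated samples lay above both Ctrl samples, and the DZNep and shEZH2 samples overlapped. SMAD3 rose by 0.83 on the log2 scale with DZNep (standard error 0.20, 95% interval 0.38 to 1.29, limma, adjusted p = 0.011) and by 0.89 with shEZH2 (standard error 0.20, 95% interval 0.43 to 1.34, limma, adjusted p = 0.035). The direct difference was 0.05 (95% interval -0.40 to 0.51, limma, adjusted p = 0.90), so that a difference of up to 0.51 on the log2 scale is not left out. The shEZH2 call was lost without Ctrl replicate 2 (limma, adjusted p = 0.089) and without shEZH2 replicate 1 or 2 (limma, adjusted p = 0.35 and 0.28).

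SMAD7, the inhibitory SMAD, was listed at 1 and 1 in Ctrl, 7 and 5 in DZNep and 2 and 2 in shEZH2 samples. It lies on chromosome 18 (chr18:48919853-48950965, minus strand). The 3 groups did not overlap, but no sample reached the minimum of 10 and the gene was not tested with the others. In the fit of all 14930 genes it was higher with DZNep by 1.75 on the log2 scale (standard error 0.26, 95% interval 1.14 to 2.35, limma, adjusted p = 0.0026). With shEZH2 it was 0.56 (95% interval -0.05 to 1.16, limma, adjusted p = 0.23). The direct difference of shEZH2 against DZNep was -1.19 (standard error 0.26, limma, adjusted p = 0.045). Rounding leaves the DZNep to Ctrl ratio of mean values, 6, anywhere between 3.67 and 13, and the shEZH2 to Ctrl ratio, 2, between 1 and 5.

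SKIL, which represses SMAD complexes, was listed at 19 and 34 in Ctrl, 25 and 38 in DZNep and 27 and 24 in shEZH2 samples. It lies on chromosome 3 (chr3:170357342-170396835, plus strand). Both treated groups overlapped with Ctrl. The log2 fold change was 0.20 with DZNep (95% interval -0.39 to 0.78, limma, adjusted p = 0.56) and -0.05 with shEZH2 (95% interval -0.63 to 0.54, limma, adjusted p = 0.92), and the sign of each turned when single samples were left out, to -0.13 without Ctrl replicate 1 for DZNep and to 0.28 without Ctrl replicate 2 for shEZH2. The direct difference was -0.24 (95% interval -0.83 to 0.34, limma, adjusted p = 0.58).

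TGFBI, a secreted matrix protein named for its induction by TGF-beta, was listed at 297 and 239 in Ctrl, 677 and 676 in DZNep and 238 and 221 in shEZH2 samples. It lies on chromosome 5 (chr5:136028988-136063818, plus strand, 17 exons). Both DZNep samples lay above all other samples, and both shEZH2 samples lay below both Ctrl samples by a narrow margin. The DZNep log2 fold change was 1.27 (standard error 0.20, 95% interval 0.81 to 1.73, limma, adjusted p = 0.0019). With shEZH2 it was -0.26 (95% interval -0.72 to 0.19, limma, adjusted p = 0.42), which leaves out an increase of the size seen with DZNep. The direct comparison gave -1.53 (standard error 0.20, 95% interval -1.99 to -1.08, limma, adjusted p = 0.0066). This direct call was just lost without shEZH2 replicate 2 (limma, adjusted p = 0.052).

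**Figure D2:**
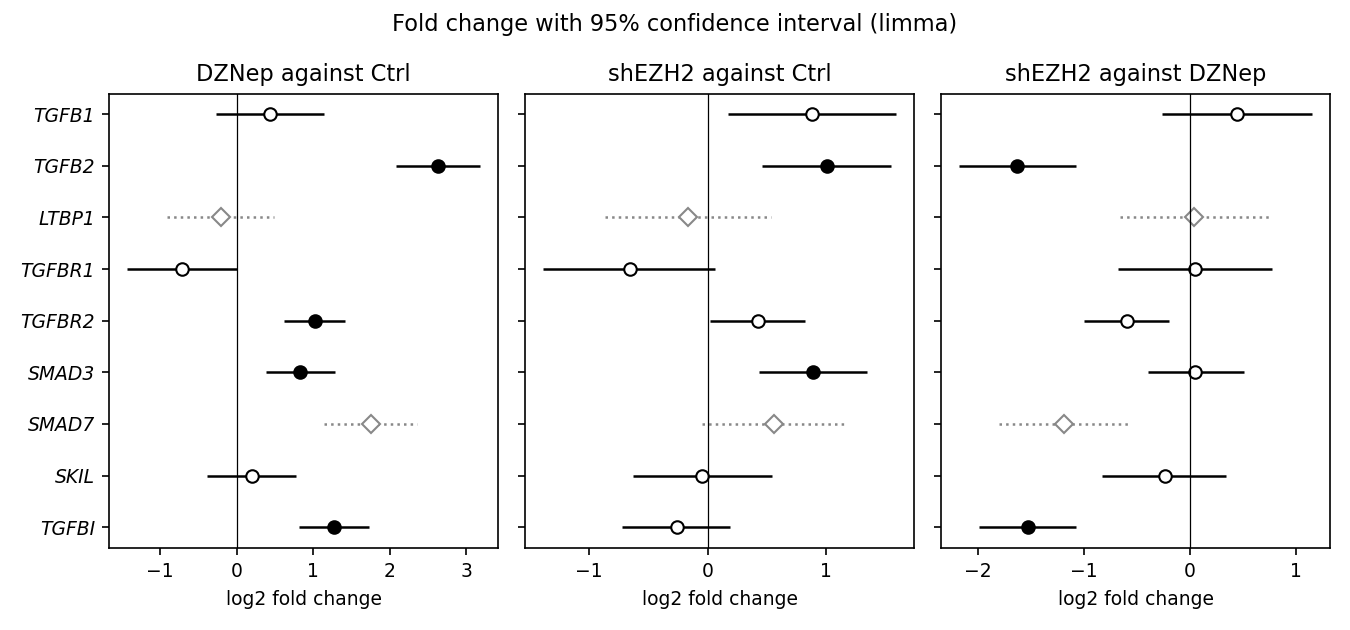
Log2 fold change (horizontal axis) with its 95% interval for the 9 genes in the 3 comparisons. Filled circles passed an adjusted p of 0.05, open circles did not, and grey diamonds with dotted lines are LTBP1 and SMAD7 from the fit of all 14930 genes; TGFB2 with DZNep (2.63) lies farthest from 0, and TGFBI lies at 1.27 with DZNep and -0.26 with shEZH2.

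Counted together, 4 of the 7 tested genes were called higher with DZNep (TGFB2, TGFBR2, SMAD3 and TGFBI) and 0 lower. Among all 9671 tested genes, 22.4% were called higher and 20.4% lower in this comparison, and the 7 genes had a median log2 fold change of 0.83 against 0.02 over all. TGFB2 is part of that count through the filter described above. The set was chosen with earlier results of these data known. The shares and medians, here and in the comparisons below, therefore do not test for an excess. By the thresholds of the study's methods, a log2 fold change above 1 with an unadjusted P under 0.05, 3 of the 7 were higher (TGFB2, TGFBR2 and TGFBI), against 10.5% of all genes higher and 11.8% lower. With the replicate number as a block, TGFBR1 was called lower (-0.71, limma, adjusted p = 0.005). The block in the Ctrl and DZNep samples alone also gave this call (limma, adjusted p = 4.6e-05), resting mainly on spread borrowed across genes. Its value was -0.97 without Ctrl replicate 1 and -1.15 without DZNep replicate 2. The 0 genes called lower compare with 0 at an unadjusted P under 0.05 in limma, since TGFBR1 had an unadjusted P of 0.054.

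With shEZH2, 2 of the 7 (TGFB2 and SMAD3) were called higher and 0 lower, against 3.9% and 4.53% of all genes. The median was 0.42 against -0.01 over all genes. By the thresholds of the methods only TGFB2 was higher, against 2.27% of all genes higher and 3.03% lower. TGFB2 is in both counts only because its DZNep samples passed the filter. Its values in Ctrl (1 and 2) and shEZH2 (4 and 4) all lay below the minimum of 10. TGFB1 and TGFBR2 had an unadjusted P under 0.05 in limma (0.021 and 0.042) without passing the adjustment, and 0 lower genes had one. With the replicate number as a block, TGFBR1 was called lower here too (-0.66, limma, adjusted p = 0.018). Between the treatments, 0 of the 7 were higher with shEZH2 (0 also at an unadjusted P under 0.05 in limma) and 2 were lower (TGFB2 and TGFBI), against 4.88% and 4.42% of all genes, and the same 2 passed the thresholds of the methods, against 3.42% higher and 2.1% lower. TGFB2 had to be lower here too, since the filter let it in through DZNep only, which leaves TGFBI as the other gene. Both comparisons with Ctrl use the same Ctrl samples, so they are not independent of each other. The 4 DZNep calls were made in each of the other fits run for them, except that TGFB2 was not tested at a minimum of 20, and by the thresholds of the methods SMAD3 was not called. Neither shEZH2 call was made when the shEZH2 samples were averaged and counted as 1.

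The replicates did not vary alike in the 3 groups. Across all tested genes, replicate 2 minus replicate 1 had a standard deviation of 0.43 on the log2 scale in Ctrl, 0.45 in DZNep and 0.14 in shEZH2. The main fit assumes a spread common to the 3 groups, which these values do not show. With only the 2 groups compared, the wider lists described below had 27 genes called with DZNep instead of 32. With shEZH2 they had 17 instead of 13. For the 9 genes the difference ran from -0.63 (TGFB1) to 0.65 (SKIL) in Ctrl and from -0.78 (LTBP1) to 0.89 (TGFBR1) in DZNep, but from -0.14 (TGFB1) to 0.04 in shEZH2. It had the same sign in Ctrl and DZNep for 8 of the 9 genes, SMAD3 being the exception, and over all tested genes the differences of these 2 groups had a correlation of 0.79 across 9671 genes, which are not independent. For TGFB1, TGFBR1 and SKIL the difference between replicates of Ctrl was of the size of the differences between groups.

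**Figure D3:**
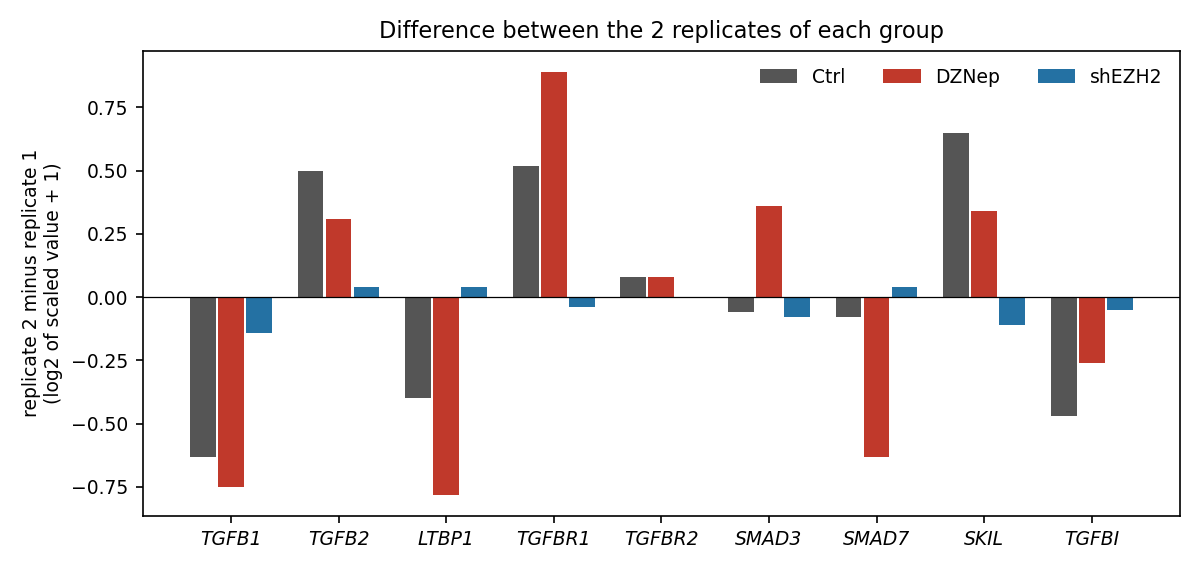
Replicate 2 minus replicate 1 (vertical axis, log2 of scaled value + 1) for the 9 genes, with 1 bar for each of the Ctrl, DZNep and shEZH2 groups. The shEZH2 bars stay between -0.14 and 0.04, whereas TGFBR1 differs by 0.89 between the DZNep replicates and SKIL by 0.65 between the Ctrl replicates.

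Other genes of the pathway were read from 5 lists with 77 further genes, of which 71 were in the matrix and 53 were tested. The log2 fold changes with DZNep had a median of 0.31, with 23 genes called higher and 9 lower (22.4% and 20.4% of all genes). With shEZH2 12 were higher and 1 lower (3.9% and 4.53% of all genes), with a median of 0.05. The direct comparison gave 3 higher and 9 lower with shEZH2 (4.88% and 4.42% of all genes), with a median of -0.08. The medians over all 9671 genes were 0.02, -0.01 and 0. Of the 53 genes, 7 passed the filter with no Ctrl sample at the minimum (BAMBI, FURIN, ID3, KLF10, LTBP3, SKI and SMAD6) and had to be higher in a treated group. INHBB, listed at 12 and 15 in Ctrl and below the minimum in all treated samples, passed through Ctrl only and had to be lower with DZNep and shEZH2, and SMAD6 passed through DZNep only. The counts over these lists therefore carry a part that the filter set. The lists were also chosen with earlier results of these data known, so the shares do not test for an excess. The shEZH2 count fell to 0 without shEZH2 replicate 1 and to 1 without replicate 2, and the direct count of 12 fell to 4 without either.

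Among 8 tested ligands and latency factors, 4 were higher and 2 lower with DZNep, against 22.4% and 20.4% of all genes. Of these, LTBP3 and FURIN (higher) and INHBB (lower) had a direction set in part by the filter, as described above. THBS1 (thrombospondin 1), which releases active TGF-beta from its latency peptide, was listed at 46 and 45 in Ctrl, 443 and 493 in DZNep and 141 and 120 in shEZH2 samples. It rose with DZNep by 3.26 on the log2 scale (limma, adjusted p = 3.5e-05) and with shEZH2 by 1.45 (limma, adjusted p = 0.0058). The latency protein LTBP3 rose with DZNep by 1.39 (limma, adjusted p = 0.0016) and with shEZH2 by 1.21 (limma, adjusted p = 0.018), whereas LTBP4 fell by 1.04 with DZNep (limma, adjusted p = 0.016) and was at 0.04 with shEZH2 (limma, adjusted p = 0.94). INHBA, an activin subunit, rose by 1.10 with DZNep (limma, adjusted p = 0.011).

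Among 7 tested receptors and co-receptors, 2 were higher and 2 lower with DZNep, shares near the 22.4% and 20.4% of all genes, and 0 were called with shEZH2 by limma, 3 of them having an unadjusted P under 0.05 (TGFBR3, ACVRL1 and ACVR2B), where the log2 fold changes ran from -0.71 to 0.65. The activin receptor ACVR2B fell with DZNep from 22 and 28 to 6 and 9 (log2 fold change -1.69, limma, adjusted p = 0.00061). TGFBR3 (betaglycan), the co-receptor that presents TGF-beta2 to TGFBR2, went from 19 and 29 to 8 and 12 (log2 fold change -1.25, limma, adjusted p = 0.004). ACVRL1 rose by 1.06 (limma, adjusted p = 0.0067) and ACVR2A by 0.69 (limma, adjusted p = 0.032).

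Among 6 tested SMADs and partners, 2 were higher and 1 lower with DZNep (22.4% and 20.4% of all genes). With shEZH2 2 were higher and 0 lower (3.9% and 4.53%). The inhibitory SMAD6 and the DNA-binding partner RUNX1 were higher with both treatments. SMAD6 was listed at 2 and 3 in Ctrl, 25 and 24 in DZNep and 8 and 7 in shEZH2 samples, with log2 fold changes of 2.82 (limma, adjusted p = 0.00011) and 1.26 (limma, adjusted p = 0.018). RUNX1 rose by 1.08 with DZNep (limma, adjusted p = 0.0035) and by 1.04 with shEZH2 (limma, adjusted p = 0.021). SMAD6 passed the filter through DZNep only, so its higher value with DZNep was set by the filter. It is in the shEZH2 count although its Ctrl and shEZH2 values all lay below the minimum. SMAD4, the common partner of the receptor-activated SMADs, had a log2 fold change of -0.63 with DZNep (limma, adjusted p = 0.034) and -0.37 with shEZH2 (limma, adjusted p = 0.26).

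Among 14 tested inhibitors and turnover genes, 3 were higher and 1 lower with DZNep, against 22.4% and 20.4% of all genes, so that the share called higher was near the background. With shEZH2 2 were higher (BAMBI and SKI), against 3.9%. Both passed the filter with no Ctrl sample at the minimum, so a higher value in a treated group was set by the filter. The same 2 are among the 3 called higher with DZNep. BAMBI, a decoy receptor without a kinase domain, went from 6 and 5 to 33 and 37 with DZNep (log2 fold change 2.41, limma, adjusted p = 0.00021) and to 17 and 13 with shEZH2 (1.25, limma, adjusted p = 0.019). SKI, the relative of SKIL, rose by 1.80 with DZNep (limma, adjusted p = 0.0039) and by 1.57 with shEZH2 (limma, adjusted p = 0.029), whereas SKIL itself passed in neither comparison. The ubiquitin ligase NEDD4L was higher with DZNep (0.98, limma, adjusted p = 0.0048) and STRAP, which steadies SMAD7 at the receptor, lower (-0.94, limma, adjusted p = 0.0058).

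Among 18 tested target genes, 12 were higher and 3 lower with DZNep (22.4% and 20.4% of all genes), and 5 higher and 1 lower with shEZH2 (3.9% and 4.53%). ID3 and KLF10, counted as higher in both comparisons, had a direction set in part by the filter. FN1 (fibronectin) was listed at 36 and 25 in Ctrl, 546 and 544 in DZNep and 87 and 70 in shEZH2 samples, a log2 fold change of 4.07 (limma, adjusted p = 5.1e-05) and 1.3 (limma, adjusted p = 0.021). ID3, an inhibitor of differentiation better known as a BMP target, was listed at 4 and 5, 85 and 71, and 14 and 16 (3.78 and 1.5, limma, adjusted p = 5.5e-05 and 0.014). The immediate early gene JUNB rose by 2.37 with DZNep (limma, adjusted p = 0.00015) and by 1.71 with shEZH2 (limma, adjusted p = 0.0058). The actin-binding protein gene TAGLN rose by 2.14 with DZNep (limma, adjusted p = 0.00063) and had 0.91 with shEZH2 (limma, adjusted p = 0.063). Several of these genes answer to other pathways as well.

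**Figure D4:**
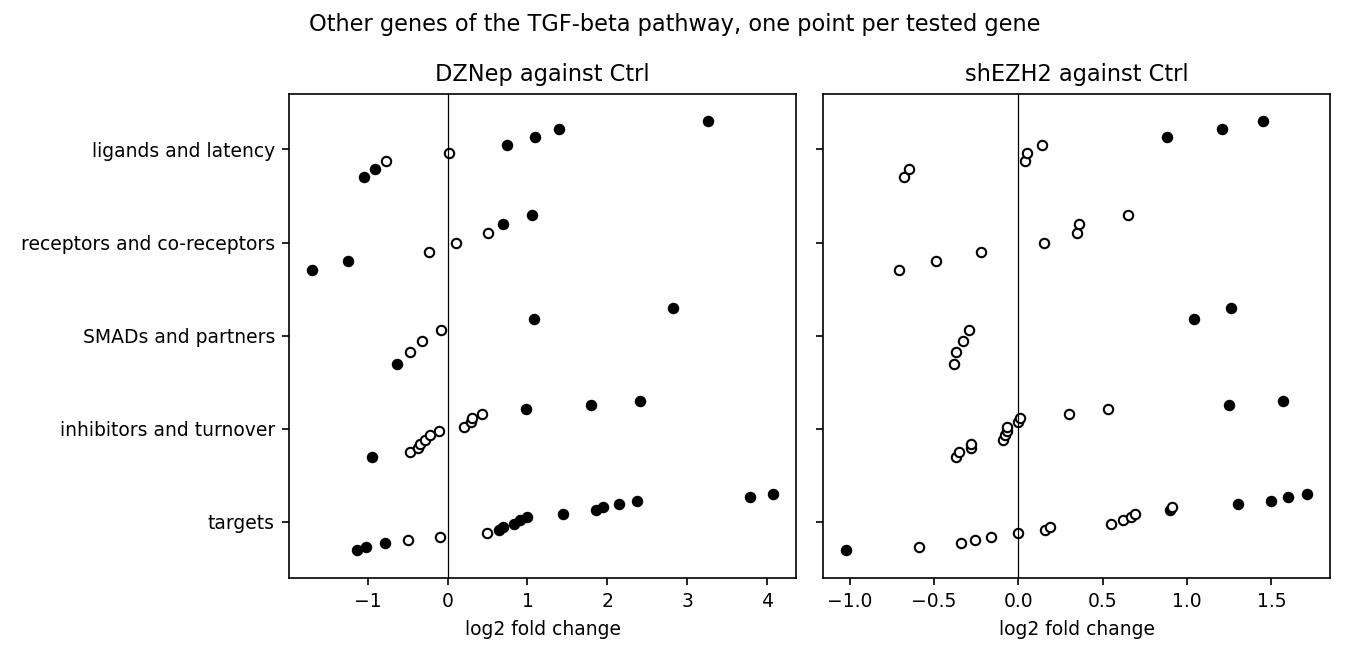
Log2 fold change (horizontal axis) with DZNep and with shEZH2 for the 53 other pathway genes tested, 1 point per gene, in 5 lists. Filled points passed an adjusted p of 0.05; with DZNep the targets reach from -1.13 to 4.07 and the receptors from -1.69 to 1.06.

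Markers of other cell types moved with the groups in some cases. Of 6 fibroblast markers 2 were listed, PDGFRB and LUM, with a summed value of 12 in both Ctrl samples, 44 to 57 in DZNep and 35 to 37 in shEZH2. PDGFRB made up nearly all of it, and LUM stayed between 0 and 2. Of 6 leukocyte markers 3 were listed, summing to 70 to 74 in Ctrl, 18 to 21 in DZNep and 32 to 35 in shEZH2, mostly CD68. The 3 of 5 endothelial markers listed summed to between 2 and 5 in every sample. The summed epithelial markers were 2577 to 3213 in Ctrl, 7408 to 8592 in DZNep and 3553 to 3558 in shEZH2, a sum carried by KRT8 and KRT18. CDH1, too low to be tested, was also highest with DZNep, at 7 and 8. It was at 1 and 0 in Ctrl and 1 and 2 in shEZH2. PAX8, WT1, EPCAM, KRT7 and MSLN did not follow the sum. With DZNep, MSLN (mesothelin) went from 176 and 150 to 45 and 36 (log2 fold change -2.06, limma, adjusted p = 0.00048) and PAX8 was lower (-0.68, limma, adjusted p = 0.028), and KRT7 had -0.08 (limma, adjusted p = 0.78). Their part in the results on TGF-beta genes was not tested.

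Genes with the most similar pattern were looked up for the member of each role with the largest DZNep change, among tested genes whose mean was 50 or more. Likeness was Pearson's r over the 6 samples, which share their libraries and fall into 3 groups, so that many genes reach high values. For TGFB2 the closest were PCF11 (r = 0.997), DHRS7 (0.996) and NIP7 (0.995), where the 99th percentile over 3333 genes was 0.979. For TGFBR2 they were FAM84B (0.999), BECN1 (0.998) and NIP7 (0.998), so NIP7 stood in both lists. NIP7 was listed at 42 and 49 in Ctrl, 100 and 133 in DZNep and 67 and 63 in shEZH2 samples. For TGFBI they were TGM2 (0.999), EZR (0.996) and PRPS1 (0.995). TGM2, a crosslinking enzyme of the matrix, was listed at 72 and 56 in Ctrl, 222 and 195 in DZNep and 55 and 52 in shEZH2 samples, an order of groups like that of TGFBI and unlike that of TGFB2.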

How the data were processed

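RNA-Seq of OVCAR8 cells was used in 6 samples, 2 each of Ctrl, DZNep and shEZH2, grouped by the sample labels. The study's methods describe ribosomal RNA removal and stranded libraries, and the submitters' processing notes name fastp, STAR, RSEM and GRCh38. Versions of STAR and RSEM and the strand setting of the counting are not given in the sources used here. The deposited table is called a count matrix, but each library sums to between 999956 and 1000068, so it was treated as a score per gene that the authors scaled and rounded to whole numbers. The number of reads is unknown, so counting error could not be given, and precision rests on rounding and on 2 replicates.

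Since scaled values do not suit a count model, the groups were compared with limma 3.58.1 (lmFit, eBayes with trend, R 4.3.3). Values were divided by TMM factors (trimming 30% of log ratios and 5% of mean values, no weights) and taken as log2(value + 1). The fold changes are on this scale, which understates those of low genes. All 6 samples entered 1 fit of group means, over genes that reached 10 in 2 or more samples. P-values are two-sided and adjusted by Benjamini-Hochberg over 9671 genes, with calls at an adjusted p under 0.05. The fit was tested on simulated data. Older gene symbols (CTGF and CYR61 for CCN2 and CCN1) were matched through RefSeq synonyms. Positions came from GENCODE release 44 and promoters from RefSeq (GRCh38.p14).

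The 9 genes, the 5 pathway lists and the marker lists were chosen with earlier results of these data known. All 9 genes and EZH2 were named, and for each pathway list up to 4 called genes with the largest change against Ctrl and a mean of at least 10. Alternatives were other scalings, pseudocounts (0.5 and 5) and filters, fits without trend or of the compared groups only, the replicate number as a block, the shEZH2 samples averaged, and each sample left out. The replicate numbers were not blocked in the main fit because the study's methods describe no block. The correlation of replicate differences across genes was 0.79 between Ctrl and DZNep. It was -0.02 between Ctrl and shEZH2 and -0.04 between DZNep and shEZH2. ChIP-Seq and other assays of the study were not used here. Values of some listed target genes are not reported here. Plots were made in Python 3.11.15 (matplotlib 3.10.9).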

Additional observations from a re-analysis of the deposited data

How the results depend on the processing

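The 17 alternative fits gave 354 values for the 7 tested genes over the 3 comparisons, of which 318 kept their direction and their side of the threshold, 16 lost the call, 14 gained it and 6 changed sign. The cause was not tested for any of them. The changes of sign were all in values that had not passed. When single samples were left out, SKIL ran from -0.13 (without Ctrl replicate 1) to 0.53 with DZNep and from -0.37 to 0.28 (without Ctrl replicate 2) with shEZH2, where it was 0.01 without shEZH2 replicate 2 and 0 as deposited. The direct difference ran from -0.40 (without DZNep replicate 1) to 0.49 for TGFBR1 and from -0.13 (without DZNep replicate 1) to 0.23 for SMAD3.

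The 2 genes of the set called with shEZH2 became 0 with the values as deposited, 1 with a pseudocount of 5, 1 without a filter, 1 at a minimum of 20, 1 by the thresholds of the methods, 0 with the shEZH2 samples averaged, and 0 to 3 when single samples were left out. A replicate block raised the count to 4, also when only the 2 groups compared were fitted. The 2 called between the treatments became 1 at a minimum of 20, 1 with the shEZH2 samples averaged, and 0 to 2 without single samples. The wider lists had 32 genes called with DZNep and 21 by the thresholds of the methods. With shEZH2 they had 13, which became 24 with the replicate block, 20 with the block in the 2 groups alone, 1 with the shEZH2 samples averaged and 0 to 18 without single samples. Between the treatments 12 became 4 with averaging and 4 to 15 without single samples. EZH2 with DZNep stayed at -0.63 but lost the call when only the 2 groups compared were fitted (limma, adjusted p = 0.088) or with averaging (limma, adjusted p = 0.091), with -0.75 to -0.51 without single samples. With shEZH2 it stayed at -1.12 and lost the call with averaging (limma, adjusted p = 0.19), with -1.15 to -1.09 without single samples. Under the replicate block the set had 5 genes called with DZNep, TGFBR1 being the added one (-0.71, limma, adjusted p = 0.005), and 3 between the treatments. With the block in the Ctrl and DZNep samples alone 6 were called, with TGFBR1 (limma, adjusted p = 4.6e-05) and TGFB1 (0.43, limma, adjusted p = 0.02). That fit leaves each gene little spread of its own, so its p-values rest mainly on spread borrowed across genes. With all 3 groups the block assumes a difference between numbers that all of them share. The replicate differences of shEZH2 had a correlation of only -0.02 with those of Ctrl and -0.04 with those of DZNep. In Ctrl and DZNep alone the block assumes a difference that these 2 groups share, and their correlation was 0.79.

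With 2 replicates, rounded values and unknown depth, differences in SMAD7, LTBP1 and TGFB2 are limited by values of a few units, and values lost to rounding cannot be recovered.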
